A study of Mus musculus with 69 samples.

Results

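The genes described here are 34 genes of macrophages, of the engulfment of dead cells and of the complement cascade, found by their symbols among 55401 gene IDs in the young libraries and older ovary and among 49585 in older pituitary and hypothalamus. They were chosen by measured values of these libraries, with the differences between genotypes in ovary in view. Their differences between genotypes in ovary are therefore given as a description. Nothing is read from their counts there, or from whether a call there held. All libraries came from female mice on a C57BL/6J background staged for proestrus. WT mice carry the unmodified Zeb1 gene, Zeb1_200H (200H below) mice carry on 1 allele, and Zeb1_200M (200M below) mice on both alleles, point mutations in the sites for miR-200a and miR-200b in the 3′ UTR of Zeb1, the gene of a zinc finger transcription factor. The alteration is in the germline and therefore in every cell, and the strain goes back to 2 clonal embryonic stem cell lines. Young mice were virgins of 8 to 12 weeks, and older mice were 28 to 36 weeks old and had been through a breeding trial with WT males. Per the paper, most 200M females of that trial had no litters, so litter history can differ between the older genotypes too. Ovary, pituitary and hypothalamus of each cohort gave 69 RNA-seq libraries, 4 in each group except for 3 in older 200M pituitary, older 200M hypothalamus and young WT pituitary. Replicates of a tissue are different mice, but the study had fewer WT mice in each cohort, and fewer young 200M mice, than libraries, so some tissues share animals. Which ones is not given in the sources used here. Young libraries were rRNA-depleted, stranded and paired-end, whereas older libraries were poly(A)-selected, unstranded and single-end, so age, breeding history and chemistry cannot be told apart and no value was tested across cohorts.

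Macrophages live in every tissue, where they survey cells through surface receptors, engulf dying cells and debris and degrade them in lysosomes. In the ovary they are known to gather in regressing corpora lutea and degenerating follicles, and in the brain microglia take this role. Complement is a cascade of plasma proteins that tags material for engulfment. It starts from C1q, a protein of 3 chains made largely by macrophages, passes through C4 and C3, whose fragments bind surfaces, and ends in a pore of which C7 is a component. Among the other members, Adgre1 encodes the F4/80 antigen, Csf1r the receptor that keeps macrophages alive, and Cd68 a lysosomal membrane glycoprotein. Fcgr1 and Fcgr3 encode receptors for antibody-coated particles, and Fcer1g and Tyrobp encode adaptors through which such receptors and TREM2 signal.

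Short motifs were searched in the promoters of these genes. Promoters, taken from 250 bases before to 50 after the transcript start in the RefSeq annotation of GRCm38.p6, were found for 27 of the 34 members, 32 promoters in all. Cd4, Csf1r, Cd14, Adgre1, C1qa, C4b and Tyrobp were not among them. The core motif of PU.1, the factor that specifies the myeloid lineage, was searched on both strands as GAGGAAGT and was found in 3 of the 32 promoters (9.38%) and in 3.2% of all 32851 promoters. It stands in capitals in these lines, with each window written on the strand of its gene. The letters of C1qc and Ctss are those of the opposite strand.
C1qc, chr4:136893091-136893120: ggacggcagacACTTCCTCattttggcaca
Ctss, chr3:95526773-95526802: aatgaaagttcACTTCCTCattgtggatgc
Spp1, chr5:104434987-104435016: caaaaccagagGAGGAAGTgtaggagcagg
The shorter ETS core GAGGAA, which lies within the PU.1 core, occurred in 18 of the 32 promoters (56.2%), those of 17 members, against 28.3% of all promoters. The M-box TCANGTGA is bound by MITF and related factors that drive lysosomal genes and Acp5, and was present in 3 of the 32 promoters (9.38%) against 4.18% of all. The letters shown for Acp5 are those of the opposite strand, and the site of Lgals3 also holds the letters CAGGTG.
Acp5, chr9:22130671-22130700: aagtccagtgcTCACATGAcccaaggggag
Ctss, chr3:95526793-95526822: ttgtggatgctTCATGTGAcaagctccgat
Lgals3, chr14:47373625-47373654: tgcggaaggctTCAGGTGAaggaattaggg
ZEB1 itself binds E-boxes. The form CAGGTA was found in 3 of the 32 promoters (9.38%) against 12% of all, and the form named above at Lgals3 in 5 (15.6%) against 20.2%. The windows with the first form are printed because Zeb1 is the gene that differs between the genotypes. A match describes these letters and no binding.
C3, chr17:57228261-57228290: gcctgagccaagCAGGTActttcaagctcc
Acp5, chr9:22131919-22131948: gaggcgaggcgcCAGGTAatggctgaggca
Aif1, chr17:35176128-35176157: atcttggcagtaCAGGTAcctcaagaggac

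Levels are counts per 1000000 (CPM) after TMM scaling within a tissue and cohort. In units of 1000000 gene counts, libraries held 7.99 to 14.66 in older ovary, 6.34 to 12.9 in young ovary, 4.53 to 12.96 in older pituitary, 7.56 to 13.34 in young pituitary, 10.19 to 13.92 in older hypothalamus and 3.32 to 5.14 in young hypothalamus. A value of 3 counts corresponds to 0.205 to 0.376 CPM in older ovary. Zeb1 was at 95.6 to 98.5 CPM in young WT pituitary against 132.2 to 141.5 CPM in 200M, and at 55.3 to 62.7 against 80.6 to 93.0 CPM in the older cohort, without overlap, whereas in ovary its groups overlapped in both cohorts. Some ovary libraries stood apart in the members. Older 200M replicates 1 and 4 summed to 11770 and 8365 CPM over the 34 genes, above replicates 2 and 3 at 3058 and 4081 CPM, and replicate 1 was the highest of its group for 26 of 32 members tested, against 19.9% of all genes. Young 200H replicate 1 summed to 571 CPM, the other young 200H libraries to between 1055 and 1465 CPM, and it was the lowest of its group for 26 of 31 members, against 26.9% of all genes. Markers of the oviduct (Ovgp1, Pax8, Foxj1) summed to 5.63 to 3082 CPM among older ovaries. Because tissue was sequenced in bulk, more cells of a type and more RNA per cell cannot be told apart.

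**Figure D1:**
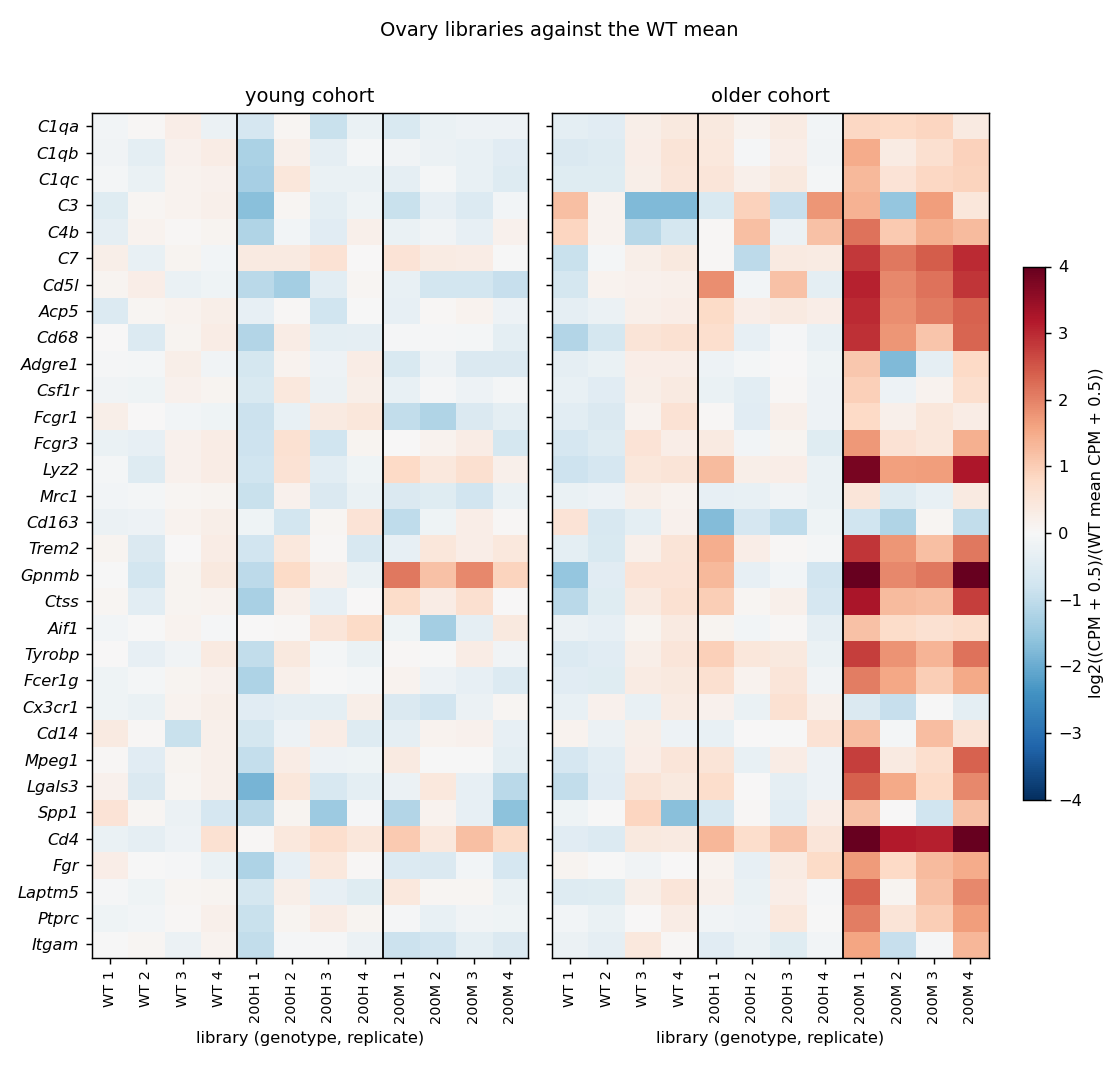
Heat map of 32 members (rows) in the 12 young and 12 older ovary libraries (columns), coloured by log2 of (CPM + 0.5) over (mean WT CPM + 0.5) of the same cohort, with colours saturating at ±4. Marco and Vsig4, which were not tested in 200M against WT in either cohort, are left out. The 4 older 200M columns carry the strongest red, most of all replicates 1 and 4, and the young columns stay near white apart from Gpnmb in 200M and the blue column of 200H replicate 1.

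In older ovary, 30 of the 32 members that passed the low-count filter had a positive log2 fold change in 200M against WT, with a median of 1.49 beside 0.04 over all genes tested. Of these, 11 were past an adjusted p of 0.05 (edgeR quasi-likelihood test, Benjamini-Hochberg over all genes), all higher, beside 1.52% of all genes that were higher and past it. All 4 libraries of 200M lay above all 4 of WT for 17 members, beside 6.41% of all genes. In young ovary the median was −0.16 beside 0.01 over all genes, 9 of 31 members were positive, 1 (Gpnmb) was past the threshold and higher, beside 0.878% of all genes, and 2 (Mrc1 and Itgam) were past it and lower, beside 1.7%. Libraries did not overlap for 1 member that was higher, Gpnmb, beside 4.22% of all genes, and for 4 that were lower, Adgre1, Fcgr1, Mrc1 and Itgam, beside 4.56%. Older 200H ovaries were close to WT, with a median of 0.15 and 0 of 32 members past the threshold, beside 0% of all genes. At an unadjusted p under 0.05 there were 2, and by DESeq2 0. In young 200H against WT, 0 of 32 were past it, beside 0.0051% of all genes, with 1 at an unadjusted p under 0.05 and 0 by DESeq2. Here and below, no share of all genes is given for counts at an unadjusted p or by DESeq2. The counts of members past the threshold depend on single libraries. The 11 members of the older 200M against WT comparison became 5 without 200M replicate 1, 4 without 200M replicate 4, 4 without WT replicate 2 or 3 and 6 without WT replicate 4, and 4 with both high 200M libraries left out, when the median was 0.80. DESeq2 called 21. The 3 members of the young comparison became 1 without 200M replicate 1, 6 without 200M replicate 2 and 5 without 200M replicate 4.

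**Figure D2:**
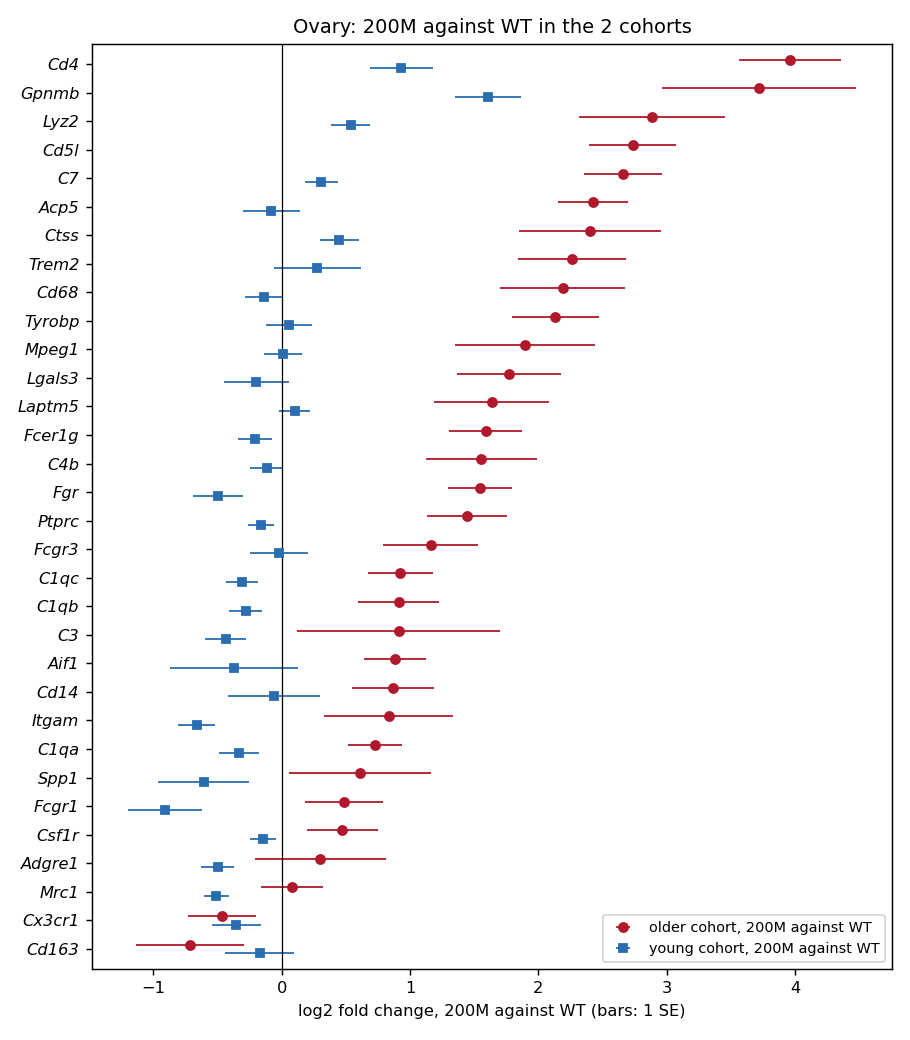
Log2 fold change of 200M against WT in ovary for each member tested, in the young and the older cohort, as points with bars of 1 standard error. Cd5l has no young point because it did not pass the low-count filter there. Older points run from −0.71 for Cd163 to 3.96 for Cd4 and young points from −0.91 for Fcgr1 to 1.60 for Gpnmb.

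The 3 C1q genes lie side by side on the minus strand of chromosome 4 in GRCm38 (C1qb at chr4:136880129-136886187, C1qc at chr4:136889804-136893065 and C1qa at chr4:136895917-136898803) and showed differences of moderate size. C1qa was at 42.9, 41, 66.7 and 74 CPM in WT, 74.6, 62.2, 71.1 and 52.1 in 200H, and 99.1, 98.9, 101.5 and 72.6 in 200M. C1qb was at 46, 48.3, 84.4 and 99.15 CPM in WT, 94, 67.5, 83.6 and 63.55 in 200H, and 196, 86.8, 109 and 131 in 200M. C1qc, the third chain, was at 40.55, 39.9, 66.2 and 79.2 CPM in WT, 79.2, 64.4, 74 and 53.8 in 200H, and 139.5, 82.3, 102 and 104.5 in 200M. Only for C1qc did every 200M library lie above every WT library; for C1qa and C1qb the lowest 200M library fell among the WT ones. Log2 fold changes (± standard error throughout) of 200M against WT were 0.73 ± 0.21 for C1qa, 0.91 ± 0.32 for C1qb and 0.92 ± 0.25 for C1qc. In young ovary the 3 genes leaned the other way. C1qa was at 10.6, 12, 13.9 and 9.63 CPM in WT, 7, 12.1, 5.92 and 9.56 in 200H, and 7.42, 9.51, 9.9 and 9.89 in 200M. C1qb was at 44.1, 37, 54.8 and 60.1 CPM in WT, 20.04, 56.5, 38.2 and 46.7 in 200H, and 43.9, 41.7, 40.2 and 35.9 in 200M. C1qc was at 22.2, 19.25, 26.1 and 26.5 CPM in WT, 9.13, 32.3, 19.5 and 19.25 in 200H, and 18.3, 22.3, 18.9 and 16.3 in 200M. The genotypes overlapped for each chain, and the log2 fold changes of 200M against WT were −0.33 ± 0.16, −0.28 ± 0.13 and −0.31 ± 0.13 in the order C1qa, C1qb, C1qc.

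Of the downstream complement genes, C7 separated the older genotypes cleanly. C7, a component of the membrane attack complex, was at 9.87, 17.6, 22.3 and 24.9 CPM in WT, 19.3, 8.69, 23.85 and 23.4 in 200H, and 137, 81.3, 101 and 151.5 in 200M. The lowest 200M library was above the highest WT and 200H libraries, and the log2 fold change was 2.66 ± 0.30 against WT and 2.62 ± 0.33 against 200H. In young ovary C7 was at 40.3, 27.7, 37.3 and 31.5 CPM in WT, 44.1, 43.8, 51.6 and 34.6 in 200H, and 49.9, 43.2, 42.6 and 34 in 200M, and the groups overlapped. C3, the central component of the cascade, was the most abundant member in each young ovary library. In older ovary C3 was at 759, 363.5, 96.85 and 97.1 CPM in WT, 216, 623, 175 and 1112 in 200H, and 863, 113.5, 1043 and 449 in 200M. High and low libraries occurred in every genotype, and the log2 fold change against WT was 0.91 ± 0.79. The oviduct markers also differed between libraries, summing to 699.0, 5.73, 5.68 and 5.63 CPM in WT, 7.32, 9.36, 349 and 3048 CPM in 200H and 317, 24.1, 3082 and 319 CPM in 200M. Some libraries were high in both, such as 200H replicate 4 with 1112 CPM of C3 and 3048 CPM of these markers. Others were high in C3 alone, such as 200H replicate 2 with 623 and 9.36 CPM. Adipocyte markers (Adipoq, Plin1, Lep, Cidec) summed to 135, 97.7, 42.7 and 90.9 CPM in WT, 39.0, 343, 111 and 165 in 200H, and 91.8, 93.9, 552 and 69.85 in 200M. The part of either list in the C3 values was not tested. In young ovary C3 was at 360.5, 526, 548 and 574 CPM in WT, 158, 532, 384 and 447 in 200H, and 268, 401, 346 and 465 in 200M, with overlap and a log2 fold change of −0.44 ± 0.16 in 200M against WT. C4b encodes a C4 protein, and its near-identical copy C4a makes its count uncertain. C4b was at 48.1, 28.8, 11.8 and 15.9 CPM in WT, 26.9, 60.7, 22 and 60.1 in 200H, and 119.5, 54.2, 70.5 and 63.9 in 200M in older ovary, each 200M library above each WT library, with a log2 fold change of 1.56 ± 0.43, but the 200H libraries reached into the 200M range. In young ovary C4b was at 24.4, 34.2, 32.5 and 34 CPM in WT, 13.4, 29.1, 22.6 and 36.15 in 200H, and 26, 28.5, 25 and 35.2 in 200M, and the groups overlapped.

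Adgre1, Csf1r and Cx3cr1, surface receptor genes of macrophages, had overlapping WT and 200M libraries in older ovary. Adgre1 was at 15.5, 16.7, 24 and 24.1 CPM in WT, 17.4, 18.8, 20.3 and 17.7 in 200H, and 42.8, 5.59, 15.6 and 34.9 in 200M in older ovary. The 200M libraries straddled those of WT, from well below to well above, and the log2 fold change was 0.30 ± 0.51. In young ovary Adgre1 was at 19.7, 19.25, 24.3 and 18.25 CPM in WT, 12.2, 22.4, 17.6 and 25.3 in 200H, and 13.05, 17.5, 13.6 and 13.3 in 200M, each 200M library was below each WT library, and the log2 fold change was −0.50 ± 0.13. Csf1r was at 53.6, 48.3, 78.4 and 84.7 CPM in WT, 55.1, 49.85, 68.1 and 57 in 200H, and 129, 57.6, 73.8 and 107 in 200M in older ovary. It was higher in 200M replicates 1 and 4 and within the WT range in the other two, with a log2 fold change of 0.47 ± 0.28. Csf1r in young ovary was at 24.8, 24.1, 30.7 and 29.3 CPM in WT, 17.8, 36.6, 23.1 and 32.4 in 200H, and 22.1, 26.6, 23.8 and 25.8 in 200M, with overlap. Csf1r overlaps the annotated loci Hmgxb3 and Mir6983, and Cx3cr1 overlaps several, which the unstranded older counts cannot separate. Cx3cr1, the receptor for fractalkine, was at 8.2, 11.5, 8.155 and 12.9 CPM in WT, 11.5, 8.31, 15.7 and 11.9 in 200H, and 6.61, 5.1, 10.1 and 7.57 in 200M in older ovary and was among the 2 tested members with a negative log2 fold change, −0.47 ± 0.26. In young ovary Cx3cr1 was at 12.3, 11.5, 15.3 and 16.5 CPM in WT, 9.96, 10.8, 10.6 and 16.5 in 200H, and 9.215, 8.06, 11.8 and 14.7 in 200M, again with overlap.

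Mrc1 and Cd163, receptors by which tissue-resident macrophages take up glycoproteins and haemoglobin, overlapped between older genotypes as well. In older ovary Mrc1 was at 25.2, 26.2, 35.7 and 33.6 CPM in WT, 24.1, 24.45, 27.55 and 25 in 200H, and 42.5, 21, 24.6 and 39.2 in 200M. The groups overlapped and the log2 fold change was 0.08 ± 0.24. In young ovary Mrc1 was at 55.4, 56, 62.3 and 63.8 CPM in WT, 31.7, 67.6, 39.3 and 49.6 in 200H, and 39.6, 42.6, 34.7 and 49.2 in 200M, the highest 200M library lay below the lowest WT library, and the log2 fold change was −0.51 ± 0.10; this call was lost without WT replicate 4, 200M replicate 1 or 200M replicate 3. Cd163 was the other member with a negative value in older ovary, at 6.52, 2.545, 3.115 and 4.91 CPM in WT, 0.927, 2.48, 1.85 and 3.71 in 200H, and 2.24, 1.58, 4.555 and 1.91 in 200M. Its groups overlapped, and the log2 fold change was −0.71 ± 0.42. Cd163 in young ovary was at 4.27, 4.31, 5.66 and 5.98 CPM in WT, 4.39, 2.84, 5.36 and 7.62 in 200H, and 2.27, 4.465, 6.21 and 5.175 in 200M, with overlap.

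Gpnmb, which encodes a transmembrane glycoprotein of lysosome-rich, lipid-laden macrophages, was the member with the widest range. In older ovary Gpnmb was at 41.1, 89.2, 178 and 180.0 CPM in WT, 302, 96.8, 114 and 70.9 in 200H, and 3108, 463.5, 527 and 2342 in 200M. Replicates 1 and 4 of 200M were the highest, replicates 2 and 3 were lower but still above every WT and 200H library, and the log2 fold change was 3.72 ± 0.75 against WT and 3.44 ± 0.75 against 200H. Gpnmb also had the highest log2 fold change of the members tested in young ovary, at 45.4, 27.7, 49.8 and 61 CPM in WT, 21.8, 79.3, 53 and 38.4 in 200H, and 199, 103, 174 and 86.25 in 200M. There, too, each 200M library was above each library of the other genotypes, with log2 fold changes of 1.60 ± 0.26 and 1.53 ± 0.35. The young call held in all 12 alternatives, while the older one was lost in 8 of 13, among them each removal of 1 WT library and of 200M replicate 1 or 4. In ovary, whether a call held describes these libraries only, because the members were chosen with these differences in view. Acp5, the tartrate-resistant acid phosphatase, was at 11.3, 12.4, 16.9 and 17.7 CPM in WT, 25.3, 17.6, 19 and 17.7 in 200H, and 119.7, 53.6, 63.1 and 76.6 in 200M in older ovary. The 200M libraries were all above the rest, the log2 fold change was 2.43 ± 0.27 against WT, and the call held in all 13 alternatives. In young ovary Acp5 was at 3.435, 5.57, 5.82 and 6.29 CPM in WT, 4.15, 5.48, 2.82 and 5.26 in 200H, and 4.07, 5.53, 5.91 and 4.485 in 200M, without a difference beyond the spread (−0.08 ± 0.22). Trem2, a lipid receptor of phagocytes, was at 2.56, 2.15, 4.12 and 5.23 CPM in WT, 10.4, 4.3, 3.63 and 3.31 in 200H, and 28.8, 13.25, 8.71 and 16.9 in 200M in older ovary. Each 200M library exceeded each WT library, by a log2 fold change of 2.26 ± 0.42, but 200H replicate 1 lay above 200M replicate 3. Trem2 in young ovary was at 1.98, 1.01, 1.8 and 2.33 CPM in WT, 0.83, 2.54, 1.83 and 0.9695 in 200H, and 1.32, 2.62, 2.22 and 2.53 in 200M, with overlap. Trem2 lost its older call in 8 of 13 alternatives, each removal of 1 WT library among them, and of 200M replicate 1 or 4.

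Cd68 was at 16.8, 23.6, 54.7 and 58.35 CPM in WT, 61.25, 30.3, 37.1 and 30.85 in 200H, and 291, 133, 83.9 and 193.5 in 200M in older ovary. Every 200M library lay above every other, with log2 fold changes of 2.19 ± 0.49 against WT and 2.12 ± 0.38 against 200H, of which only the second was past the threshold; that call was lost without any 1 of the 4 200H libraries or 200M replicate 1, 2 or 4. In young ovary Cd68 was at 37.7, 25.7, 40.3 and 46.3 CPM in WT, 16.5, 45.7, 28.3 and 28.95 in 200H, and 36.6, 35.9, 35.2 and 28.75 in 200M, with overlap. Lyz2, the lysozyme of macrophages and neutrophils, was together with Gpnmb the most abundant member in older 200M replicates 1 and 4, and its near-identical copy Lyz1 makes its count uncertain. In older ovary it was at 132, 149.8, 324 and 341 CPM in WT, 564, 279, 283 and 199 in 200H, and 3275, 743, 755 and 2213 in 200M. No 200M library fell among those of the other genotypes, and the log2 fold change was 2.88 ± 0.57 against WT. In young ovary Lyz2 was at 54.4, 40.3, 64 and 70.7 CPM in WT, 32.6, 86.1, 43 and 50.55 in 200H, and 101, 76.4, 90.3 and 66.4 in 200M, leaning the same way with overlap (0.54 ± 0.15). The older call of Lyz2 was lost in 8 of 13 alternatives, each removal of 1 WT library and of 200M replicate 1 or 4 among them. Cd5l, a secreted lipid-binding protein of macrophages, was at 2.29, 4.45, 4.58 and 4.67 CPM in WT, 15.75, 3.63, 9.665 and 2.91 in 200H, and 37.7, 16.5, 19.98 and 32.4 in 200M in older ovary. Each 200M library was above each 200H and WT library, with a log2 fold change of 2.73 ± 0.34 against WT that held without any single library. Cd5l was scarce in young ovary, at 1.46, 1.65, 0.984 and 1.115 CPM in WT, 0.356, 0.203, 0.846 and 1.385 in 200H, and 0.957, 0.582, 0.591 and 0.46 in 200M, where it did not pass the filter for 200M against WT. Spp1, which encodes the secreted phosphoprotein osteopontin, was at 57.5, 64.3, 118 and 20.2 CPM in WT, 41.4, 66.8, 47.9 and 77.7 in 200H, and 148, 65.5, 37.5 and 146 in 200M in older ovary. Its groups overlapped, with a log2 fold change of 0.61 ± 0.55. In young ovary Spp1 was at 14.5, 10.3, 8.28 and 5.98 CPM in WT, 4.39, 10.5, 3.24 and 9.42 in 200H, and 4.07, 10.8, 7.69 and 2.76 in 200M, also with overlap.

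**Figure D3:**
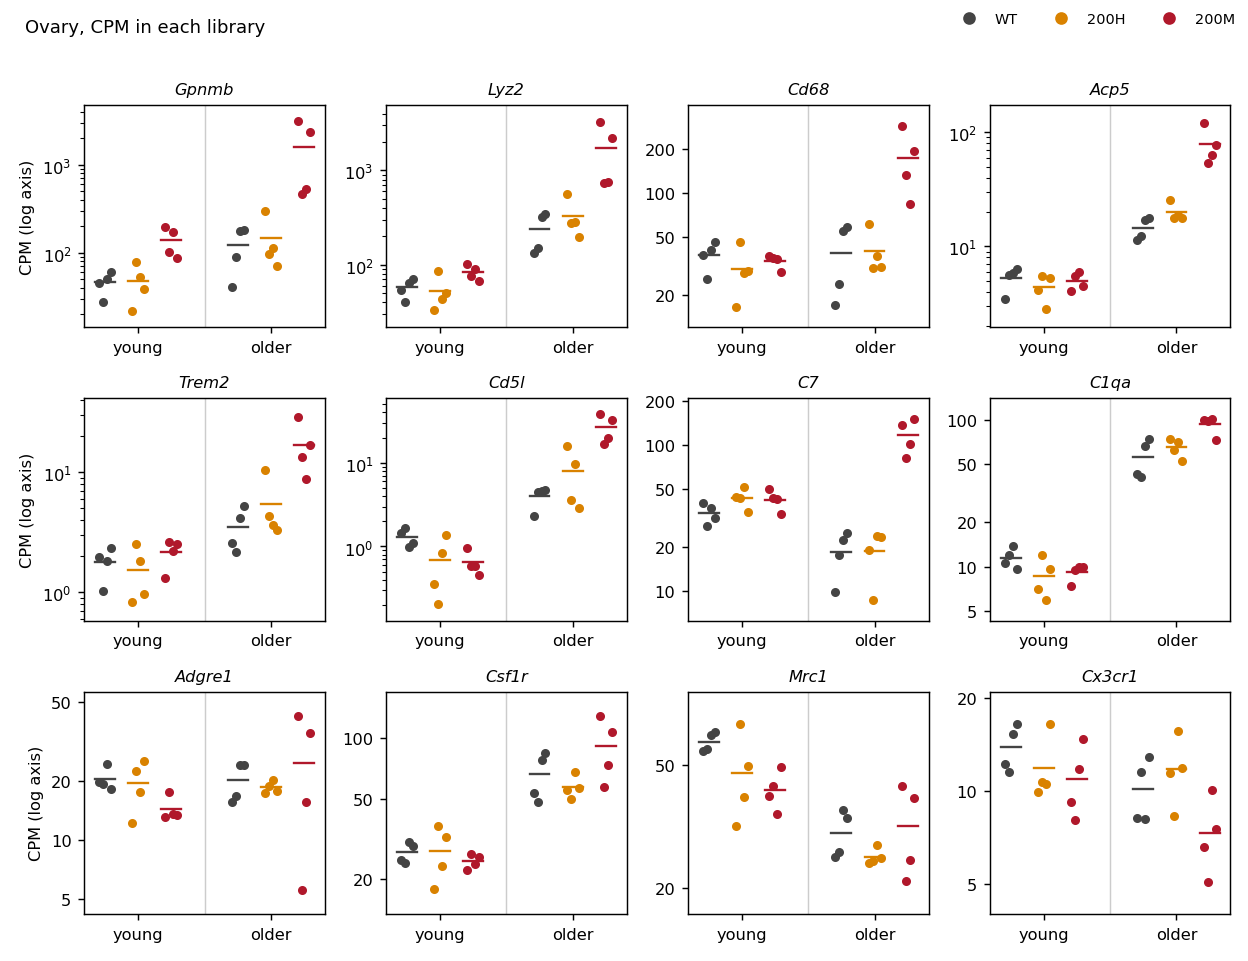
CPM of selected members in each ovary library on a log axis, by cohort and genotype, 1 point per library with the group mean as a line. In the older cohort the 200M points of Gpnmb, Lyz2, Acp5 and C7 lie above all WT and 200H points, with replicates 1 and 4 on top for Gpnmb and Lyz2, whereas those of Csf1r and Mrc1 mix with WT.

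The members not yet named fell between these patterns. Cd4, which encodes a coreceptor of T cells also carried by some macrophages, had the highest log2 fold change in older ovary, 3.96 ± 0.40 against WT and 2.89 ± 0.34 against 200H, with 2.15 to 4.58 CPM in WT, 4.9 to 9.17 in 200H and 33 to 80.7 in 200M. It was the only member whose older 200H libraries all lay above those of WT (1.06 ± 0.32), beside 1.35% of all genes, and both of its 200M calls held without any single library. Markers of T, B and NK cells moved in the same direction, 8 of 8 tested being positive and 3 past the threshold, and their summed level was 6.69 to 9.34 CPM in WT, 9.86 to 12.2 CPM in 200H and 16.3 to 30.5 CPM in 200M. Their part in the Cd4 value was not tested. The adaptors followed. Tyrobp had 16.3 to 33.5 CPM in WT, 19.6 to 46.6 in 200H and 61.8 to 164 in 200M, a log2 fold change of 2.13 ± 0.34, and Fcer1g had 13 to 24.6 CPM in WT, 16.8 to 29.4 in 200H and 37 to 77.9 in 200M, a log2 fold change of 1.59 ± 0.28. Fgr, a Src-family kinase of myeloid cells, had 1.83 to 2.29 CPM in WT, 1.53 to 3.84 in 200H and 4.01 to 7.84 in 200M (1.54 ± 0.25), and Ptprc, the pan-leukocyte phosphatase CD45, had 16 to 23.9 CPM in WT, 16.6 to 25.8 in 200H and 27.6 to 79.8 in 200M (1.45 ± 0.31). All 4 were past the threshold against WT, without overlap, but each call was lost without 200M replicate 4 and without WT replicate 2 or 3, that of Fgr, Fcer1g and Ptprc also without 200M replicate 1, that of Fgr and Ptprc without WT replicate 4, that of Ptprc without WT replicate 1 and that of Fcer1g without 200M replicate 2. Ctss, a lysosomal protease, Lgals3, which encodes galectin 3, and Aif1, the marker IBA1, had non-overlapping libraries as well, with log2 fold changes of 2.403 ± 0.55, 1.77 ± 0.41 and 0.89 ± 0.24. Mpeg1, the pore protein perforin 2, and Laptm5, a lysosomal membrane protein, had log2 fold changes of 1.90 ± 0.55 and 1.64 ± 0.45, yet 200M replicate 2 lay within the WT range of each. For Fcgr1, Fcgr3 (whose reads could in part belong to the similar Fcgr2b), Cd14, the receptor for lipopolysaccharide, and Itgam, the integrin chain of complement receptor 3, the older WT and 200M groups overlapped, with log2 fold changes from 0.48 ± 0.30 for Fcgr1 to 1.16 ± 0.37 for Fcgr3. In young ovary Itgam was lower, with 13.2 to 17.4 CPM in WT, 7.71 to 15.4 in 200H and 8.5 to 11.8 in 200M and a log2 fold change of −0.66 ± 0.14, a call lost without WT replicate 1, 2 or 4 or 200M replicate 1. Fcgr1 was lower there without overlap (−0.91 ± 0.29) but not past the threshold. Marco, a scavenger receptor gene, and Vsig4, a complement receptor gene, reached at most 0.318 and 0.322 CPM in older ovary and 2.77 and 1.52 CPM in young ovary, and neither was tested in 200M against WT in either cohort.

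The comparison of older 200M with 200H ovaries shares the 200M libraries with that against WT. C7, Acp5, Cd68, Tyrobp, Fcer1g and Cd4 were past the threshold in it, 6 of 32 and all higher, beside 0.711% of all genes, and 17 members did not overlap, beside 5.2%. The count was 3 without any 1 of the 200H libraries or without 200M replicate 1 or 4 and 9 without 200M replicate 3. It was 0 without 200M replicates 1 and 4 together and 19 by DESeq2. No share of all genes is given beside these alternative counts. In young ovary 0 of 31 members were past the threshold between 200M and 200H, beside 0% of all genes, with 5 at an unadjusted p under 0.05 and 0 by DESeq2. Gpnmb alone did not overlap, beside 1.26%.

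Markers of other ovarian cells moved beside the members. The luteal genes were lower in 200M, 5 of 9 past the threshold in older ovary beside 1.19% of all genes lower, and 3 of 9 in young ovary, beside 1.7%. Their summed level was 14380 to 37340 CPM in older WT, 17270 to 30590 CPM in older 200H and 5098 to 13180 CPM in older 200M. In the young cohort it was 7812 to 10430 CPM in WT, 5363 to 8030 CPM in 200H and 5336 to 9000 CPM in 200M. Young 200H thus overlapped young 200M. Dendritic cell markers summed to 57.3 to 77.9 CPM in older WT and 92.4 to 225 CPM in 200M. Their list holds Itgax, which is also given below among the complement genes. Neutrophil and monocyte markers summed to 13.0 to 15.2 CPM in older WT and 13.1 to 27.2 CPM in older 200M. In young ovary they were lower in 200M without overlap, at 29.3 to 39.95 CPM in WT, 11.4 to 36.3 CPM in 200H and 20.8 to 23.7 CPM in 200M. Endothelial markers summed to 308 to 319 CPM in older WT and 195.5 to 306.5 CPM in 200M. The part of these cell types in the members' values was not tested.

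Genes of the same pathways outside the 34 were counted by list in older ovary, where 1.52% of all genes were past the threshold and higher in 200M than in WT and 1.19% lower. Of 28 other complement genes tested, 2 were past the threshold and higher in 200M than in WT and 0 lower, with a median of 0.35, the median of all genes being 0.04. The genes named next were picked by size of fold change, whether called or not. The complement receptor integrins Itgax and Itgb2 stood at 2.85 ± 0.51 and 2.32 ± 0.54 on the log2 scale. Cfd, which encodes factor D, stood at 1.99 ± 1.11, and Hc, which encodes C5, at −3.52 ± 0.80 without passing the threshold. Adipocyte markers summed to 42.7 to 135 CPM in older WT and 69.85 to 552 CPM in older 200M, and their part in the Cfd value was not tested. Among macrophage transcription and growth factors 3 of 16 were higher and 1 lower. Spi1, which encodes PU.1, was at 7.75 ± 2.56 CPM in WT (mean ± SD, n = 4) and 22.8 ± 7.66 CPM in 200M, whereas Maf was at 168 ± 61.8 CPM in WT and 67.7 ± 13.7 CPM in 200M. Of the genes of engulfment 4 of 29 were higher and 1 lower. Picked by size of fold change and not by call, Clec7a, the β-glucan receptor dectin 1, stood at 2.62 ± 0.66 and the oxidase subunit Cybb at 2.21 ± 0.61. None of 24 lysosomal enzyme genes was past the threshold (0 of 24 tested, with 8 at an unadjusted p under 0.05), though Ctsd, which encodes cathepsin D, stood at 1.46 ± 0.42 and Lgmn, which encodes legumain, at −1.55 ± 0.40. The lysosomal list was split by the same libraries as the members, summing to 17980 and 15210 CPM in 200M replicates 1 and 4, 7684 and 8851 CPM in replicates 2 and 3 and 7177 to 9825 CPM in WT. Of 8 osteoclast-like genes 0 were higher and 1 lower, with Atp6v0d2, a proton pump subunit, at 2.85 ± 0.65. Of 17 chemokine genes 3 were higher and 0 lower, among them Ccl3 (2.34 ± 0.40) and Ccl5 (1.96 ± 0.41).

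In young ovary, where 0.878% of all genes were past the threshold and higher in 200M and 1.7% lower, 5 of 30 other complement genes were past the threshold and lower in 200M, Hc (−1.33 ± 0.28), Cfb (−0.96 ± 0.23) and C2 (−0.68 ± 0.10) among them, and 0 were higher. Of 15 transcription and growth factor genes 1 was lower, Maf at −0.56 ± 0.10, and 0 were higher, and 14 of the 15 had a negative value. The engulfment list had 3 of 30 lower, with the scavenger receptor gene Msr1 at −0.84 ± 0.18, the lysosomal list 2 of 24 and the chemokine list 2 of 14, Ccl6 (−0.86 ± 0.18) and the monocyte receptor Ccr2 (−0.74 ± 0.13), and no gene of these lists was higher and past the threshold.

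In pituitary, Mrc1 and Csf1r rose in both cohorts of 200M mice, and other members in 1 or 2 comparisons each. Of 24 members tested in young pituitary, 5 were past the threshold in 200M against WT and higher, beside 11.5% of all genes, and 22 were positive, with a median of 0.30 beside 0.002 over all genes. In 200H against WT it was 2 of 24, beside 6.56%, which is near the background. The older cohort gave 5 of 26 higher in 200M against WT, beside 11.7% with a median of 0.49 beside −0.01 over all genes, and 2 of 26 in 200H against WT, beside 7.09%. Between 200M and 200H 0 members passed in either cohort, beside 0.0383% of all genes in young and 0.121% in older pituitary. At an unadjusted p under 0.05 there were 0 in young and 4 in older pituitary, and by DESeq2 0 and 1. Mutant libraries lay above all WT libraries for 5 members in young and 5 in older 200M, beside 14.6% and 16.2% of all genes, and for 4 and 2 in 200H, beside 11.6% and 9.24%. Older 200M libraries lay above all 200H libraries for 2 members, Spp1 and Cd4, beside 6.04%. Without young WT replicate u (the library whose column carries no usable number) or young 200M replicate 3 the 5 became 3, and in the older cohort the 5 became 3 without WT replicate 1 or 2, 10 without WT replicate 4 and 2 without 200M replicate 3. The 2 of the 200H comparisons became 1 in the young cohort without WT replicate 1, 2 or u or 200H replicate 2 or 4, and 5 in the older cohort without WT replicate 4.

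Mrc1 was higher in all 4 comparisons of mutant with WT pituitary. In young pituitary Mrc1 was at 4.91, 4.14 and 4.93 CPM in WT, 7.06, 7.215, 8.69 and 11.1 in 200H, and 8.07, 6.76, 8.79 and 8.5 in 200M. In older pituitary it was at 2.78, 3.84, 4.245 and 4.58 CPM in WT, 7.64, 8.74, 5.94 and 6.24 in 200H, and 7.64, 8.95 and 11.6 in 200M. All mutant libraries lay above all WT libraries in both cohorts. For 200M the log2 fold change was 0.80 ± 0.18 among young mice (edgeR adjusted p = 0.00458, at most 0.0612 over the alternatives) and 1.27 ± 0.22 among older mice (edgeR adjusted p = 0.00162, at most 0.0121). For 200H it was 0.87 ± 0.21 among young mice (edgeR adjusted p = 0.0151, at most 0.143, lost without WT replicate 2) and 0.90 ± 0.20 among older mice (edgeR adjusted p = 0.013, at most 0.0422). Csf1r was at 10.5, 11.4 and 8.47 CPM in WT, 13, 16, 14 and 16.4 in 200H, and 12.7, 17.2, 17.4 and 17.3 in 200M in young pituitary and at 26, 28.9, 31.3 and 35.2 CPM in WT, 36.8, 35.5, 40.02 and 34.9 in 200H, and 36.3, 41.05 and 52.6 in 200M in older pituitary. The 200M libraries lay above those of WT in each cohort, by 0.68 ± 0.15 in the young (adjusted p = 0.00517, at most 0.121 over the alternatives) and 0.51 ± 0.14 in the older (adjusted p = 0.0201, at most 0.12, lost without WT replicate 2 or 200M replicate 3). In young 200H the value was 0.56 ± 0.15 (adjusted p = 0.0279, at most 0.275, lost without WT replicate 1 or u or 200H replicate 2 or 4).

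**Figure D4:**
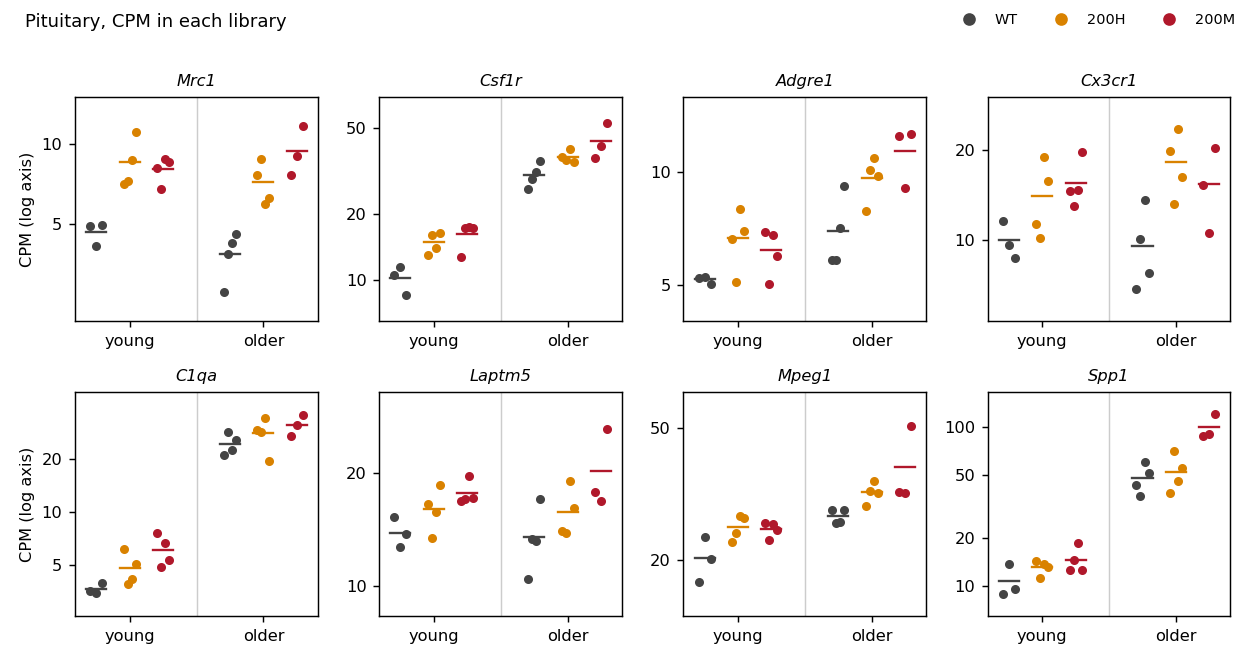
CPM in each pituitary library, by cohort and genotype, for the members past the threshold in a pituitary comparison, 1 point per library with the group mean as a line, on a log axis. The Mrc1 points of both mutant genotypes lie above all WT points in both cohorts, and Spp1 separates 200M from WT in the older cohort.

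Spp1 gave the lowest adjusted p of the members in pituitary. It was at 42.95, 36.7, 60.45 and 51.15 CPM in WT, 38.3, 70.04, 45.4 and 54.8 in 200H, and 87.5, 89.8 and 121 in 200M in older pituitary. Each 200M library was above each library of the other genotypes, with a log2 fold change of 1.07 ± 0.16 against WT (edgeR adjusted p = 0.000609, at most 0.00444 over 11 alternatives) and 0.91 ± 0.18 against 200H (adjusted p = 0.0715). In young pituitary Spp1 was at 8.89, 13.8 and 9.54 CPM in WT, 14.4, 11.2, 13.8 and 13.2 in 200H, and 12.6, 14.5, 18.6 and 12.7 in 200M, with overlap and 0.47 ± 0.18 (adjusted p = 0.0783). Cx3cr1 was at 11.55, 9.63 and 8.68 CPM in WT, 11.3, 10.1, 19 and 15.7 in 200H, and 14.5, 12.95, 14.6 and 19.7 in 200M in young pituitary. The 200M libraries lay above those of WT, by 0.63 ± 0.16 (adjusted p = 0.0115, at most 0.186, lost without WT replicate u). In older pituitary Cx3cr1 was at 6.81, 10.1, 13.5 and 7.74 CPM in WT, 19.9, 13.2, 23.6 and 16.2 in 200H, and 15.3, 10.5 and 20.3 in 200M, where the difference passed in 200H (0.94 ± 0.22, adjusted p = 0.0159, at most 0.0496), although 200H replicate 2 lay just below the highest WT library.

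C1qa was at 3.58, 3.47 and 3.97 CPM in WT, 6.2, 3.9, 4.19 and 5.06 in 200H, and 7.61, 4.865, 6.66 and 5.33 in 200M in young pituitary. It was higher in 200M by 0.76 ± 0.21 (edgeR adjusted p = 0.0188, 0.00827 to 0.0659 over the alternatives, lost without WT replicate 1 or 2 or 200M replicate 1 or 3), while C1qb and C1qc, at 0.33 ± 0.14 and 0.26 ± 0.22, did not pass. Laptm5 was at 15.2, 12.65 and 13.7 CPM in WT, 16.5, 13.4, 15.8 and 18.6 in 200H, and 16.9, 17.1, 19.6 and 17.1 in 200M, without overlap of WT and 200M. Its difference of 0.37 ± 0.12 was the smallest that passed (adjusted p = 0.0377, up to 0.291) and was lost by DESeq2 and without WT replicate 2 or u or 200M replicate 2 or 3. In older pituitary Adgre1 was at 5.84, 5.81, 7.08 and 9.16 CPM in WT, 7.87, 10.1, 10.9 and 9.74 in 200H, and 12.5, 9.08 and 12.6 in 200M. The lowest 200M library lay just below the highest WT library, and the difference of 0.69 ± 0.21 (adjusted p = 0.0341, up to 0.128) was lost without WT replicate 1, 2 or 3 or 200M replicate 1 or 3. Mpeg1 was at 28.35, 26, 26.1 and 28.4 CPM in WT, 29.2, 32.4, 34.7 and 31.75 in 200H, and 32.05, 31.8 and 50.5 in 200M. All 200M libraries were above those of WT by a log2 fold change of 0.48 ± 0.15 (adjusted p = 0.0435, up to 0.235), which was lost without WT replicate 1, 2 or 3 or 200M replicate 3. Lgals3 went the other way, each 200M library lying below each WT library (−0.63 ± 0.27, adjusted p = 0.11), beside 15.4% of all genes. Gpnmb and Acp5 were scarce in pituitary, Gpnmb at 0 to 5.75 CPM and Acp5 at 0.417 to 1.66 CPM over the older libraries.

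Markers of other cells were set beside these members in pituitary. Microglial markers summed to 63.0 to 80.9 CPM in young WT, 92.0 to 96.2 CPM in 200H and 88.6 to 104 CPM in 200M, with 2 of 8 past the threshold and higher in 200M, beside 11.5% of all genes. In older pituitary they overlapped, at 101 to 125 CPM in WT, 121 to 161 CPM in 200H and 123 to 141 CPM in 200M, with 1 of 8 past the threshold, near the 11.7% of all genes. Fibroblast markers (Dcn, Lum, Col1a1, Pdgfra) summed to 119 to 141 CPM in young WT and 156 to 242 CPM in young 200M and to 79.9 to 119.5 and 152 to 164 CPM in the older cohort, without overlap, with 1 and 2 of 4 past the threshold and higher. The 3 neuron markers were higher in 200M as well, 2 past the threshold in young and 3 in older pituitary, with sums of 770 to 835 against 918 to 993 CPM and of 523 to 575 against 747.5 to 814.5 CPM. The list of hypothalamic neuron genes, which holds Pomc in common with the endocrine list, summed to 8796 to 12020 CPM in older WT and 11500 to 24620 CPM in older 200M. The endocrine genes (Gh, Prl, Pomc, Tshb, Lhb and Fshb) held 162100 to 185600 CPM in young WT pituitary, 68670 to 96920 CPM in 200H and 66900 to 86630 CPM in 200M, and 288200 to 320700, 150300 to 225300 and 161000 to 209900 CPM in the older cohort. Older 200M replicate 3 stood apart from replicates 1 and 2, the members summing to 619 CPM in it and to 420 and 413 CPM in the others, and red blood cell markers to 279.6 CPM against 118.5 and 89.0 CPM. The part of these markers in the members' values was not tested.

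In pituitary, genes of the other lists were called in both directions. Csf1, which encodes a ligand of the Csf1r product, rose in both cohorts. Its mean was 12.6 ± 1.72 (SD, n = 3) CPM for young WT and 17.8 ± 1.56 (n = 4) for young 200M (edgeR adjusted p = 0.00996), and 17.7 ± 3.76 (n = 4) against 27.4 ± 1.26 (n = 3) CPM among older mice (edgeR adjusted p = 0.00948). Il34, which encodes the other ligand, rose by 1.65 ± 0.34 in young 200M (adjusted p = 0.00257) and 0.89 ± 0.23 in older 200M (adjusted p = 0.015). Cx3cl1, which encodes fractalkine, the ligand of the Cx3cr1 product, rose by 0.69 ± 0.09 (adjusted p = 4.85e-05) and 0.62 ± 0.11 (adjusted p = 0.0016). Counted by list, transcription and growth factors had 4 of 15 higher and 0 lower in 200M in each cohort, with Maf at 0.76 ± 0.15 in the young (adjusted p = 0.00201), opposite in sign to ovary; that difference between tissues was not tested. Other complement genes had 4 higher and 1 lower of 22 in young and of 23 in older pituitary. The lower one was Cfi, which encodes the inhibitor factor I, in both (−2.02 ± 0.32, adjusted p = 0.000325, and −1.99 ± 0.46, adjusted p = 0.00962), and vitronectin, Vtn, was higher (1.06 ± 0.25 and 1.09 ± 0.22). The engulfment list had 7 higher and 3 lower of 27 in each cohort, with the hyaluronan receptor gene Stab2 lower (−1.42 ± 0.20 and −2.06 ± 0.30). The lysosomal list had 7 of 24 higher in young and 3 of 24 in older 200M, with Lgmn at 0.79 ± 0.10 (adjusted p = 3.42e-05) and 0.65 ± 0.10 (adjusted p = 0.001). Chemokines had 1 higher and 1 lower of 7 and 2 higher of 6, and osteoclast-like genes 0 of 6 and 0 of 5, with 1 at an unadjusted p under 0.05 in each. These counts stand beside 11.5% and 11.7% of all genes higher in young and older 200M and beside 10% and 9.77% lower.

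In hypothalamus no member passed in any comparison by edgeR. The count was 0 of 19 in young 200M against WT, beside 0.02% of all genes, and 0 of 27 in older 200M against WT, beside 0.00622%. At an unadjusted p under 0.05 there were 1 and 10 members, and by DESeq2 0 and 3. In both comparisons of 200H with WT the count was 0, beside 0.0202% and 0%. There 0 and 1 were at an unadjusted p under 0.05 in the young and older cohort, and 0 by DESeq2. Between 200M and 200H it was 0 as well, beside 0% of all genes, with 0 and 9 at an unadjusted p under 0.05 and 0 by DESeq2. These shares are of all genes past the edgeR threshold. None is given for the counts at an unadjusted p or by DESeq2, so those counts do not set the members apart. The older 200M values nevertheless leaned to one side. All 27 members tested had a positive log2 fold change against WT, with a median of 0.37 beside 0.02 over all genes, and for 6 of them the libraries did not overlap, beside 7.89% of all genes. Against 200H it was also 6, beside 8.81%, and in young 200M against WT it was 1, Cd68, beside 1.76%. C1qa was at 46.1, 32.75, 39.9 and 33.6 CPM in WT, 48.4, 44.5, 33.4 and 33.2 in 200H, and 49.5, 54.6 and 56.7 in 200M. C1qb was at 43.1, 33.7, 40.9 and 35.85 CPM in WT, 49.5, 44.9, 30.9 and 33.2 in 200H, and 47.1, 54.45 and 50.5 in 200M. C1qc was at 31, 26.8, 35.1 and 31.6 CPM in WT, 37.75, 34.25, 28.1 and 26.05 in 200H, and 36.2, 44.1 and 38.35 in 200M. In each of the 3 genes the 200M libraries lay above those of WT, and for C1qb and C1qc they overlapped 200H, with log2 fold changes of 0.49 ± 0.12 (edgeR adjusted p = 0.112), 0.40 ± 0.10 (adjusted p = 0.116) and 0.34 ± 0.11 (adjusted p = 0.162). Csf1r (0.01 ± 0.10), Laptm5 (0.01 ± 0.10) and Cx3cr1 (0.14 ± 0.09) were nearly level. Leaving out WT replicate 1 gave 1 member past the threshold. Red blood cell markers summed to 36.8 to 70.2 CPM in older WT hypothalamus and 77.3 to 204 CPM in 200M, and microglial markers to 151 to 192 and 158 to 182.5 CPM. Their part in the leaning was not tested. Cd5l and Marco had 0 counts in all young hypothalamus libraries, which allows up to 0.583 to 0.903 CPM depending on the library (counting error only). Young hypothalamus had the fewest counts, with 12 of 19 positive and C1qa at 5.79, 4.49, 2.55 and 6.805 CPM in WT, 8.06, 6.28, 6.68 and 4.04 in 200H, and 6.92, 6.81, 3.78 and 9.29 in 200M.

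In WT mice most members differed between tissues, in fits that treat the libraries of tissues sharing mice as independent. Among young WT libraries, 29 of 32 members tested were higher in ovary than in pituitary, beside 35.6% of all genes, with a median log2 difference of 2.00. Against hypothalamus 23 of 28 were higher, beside 40.6%, and 1, Cx3cr1, was lower (−1.33 ± 0.15, edgeR adjusted p = 8.9e-08), beside 36.1%. The members were picked with ovary in view, and a member could pass the low-count filter through ovary alone. In 200M against WT, 24 members passed it in young pituitary and 19 in young hypothalamus. For members that passed through ovary alone the direction was set in advance, so the counts with ovary are a description. Gpnmb, which was not tested between genotypes in young pituitary, differed by 6.15 ± 0.37 between ovary and pituitary. C3 differed by 7.15 ± 0.18 between ovary and hypothalamus (adjusted p = 6.9e-19). Per kilobase of exon, the highest mean levels in young WT ovary were those of C3 (97.6 CPM per kb), C1qb (45.0), Lyz2 (43.6), Fcer1g (40.1) and Ctss (39.1), of which C1qb, Lyz2, Fcer1g and Ctss lay close together. In older WT ovary Lyz2 led (179.8 CPM per kb), followed by Ctss (73.4), C3 (64.0), C1qb (63.8) and C1qa (54.0). Between pituitary and hypothalamus of WT mice, members divided. In the older cohort 7 of 26 were higher in pituitary, beside 37.6% of all genes, and 14 were lower, beside 39.2%, and in the young cohort 2 and 8 of 20, beside 36.8% and 35.4%. C4b was lower in pituitary, with log2 differences of −4.34 ± 0.25 and −3.85 ± 0.25 (adjusted p = 1.57e-13 in the young and 3.63e-09 in the older), and Cx3cr1 and Itgam, known from microglia, were lower there as well, whereas Lgals3 (1.85 ± 0.27, adjusted p = 1.89e-05) and Spp1 (1.96 ± 0.32, adjusted p = 6.08e-05) were higher in older pituitary. Older ovary was counted with another annotation than the other older tissues and was not compared with them.

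**Figure D5:**
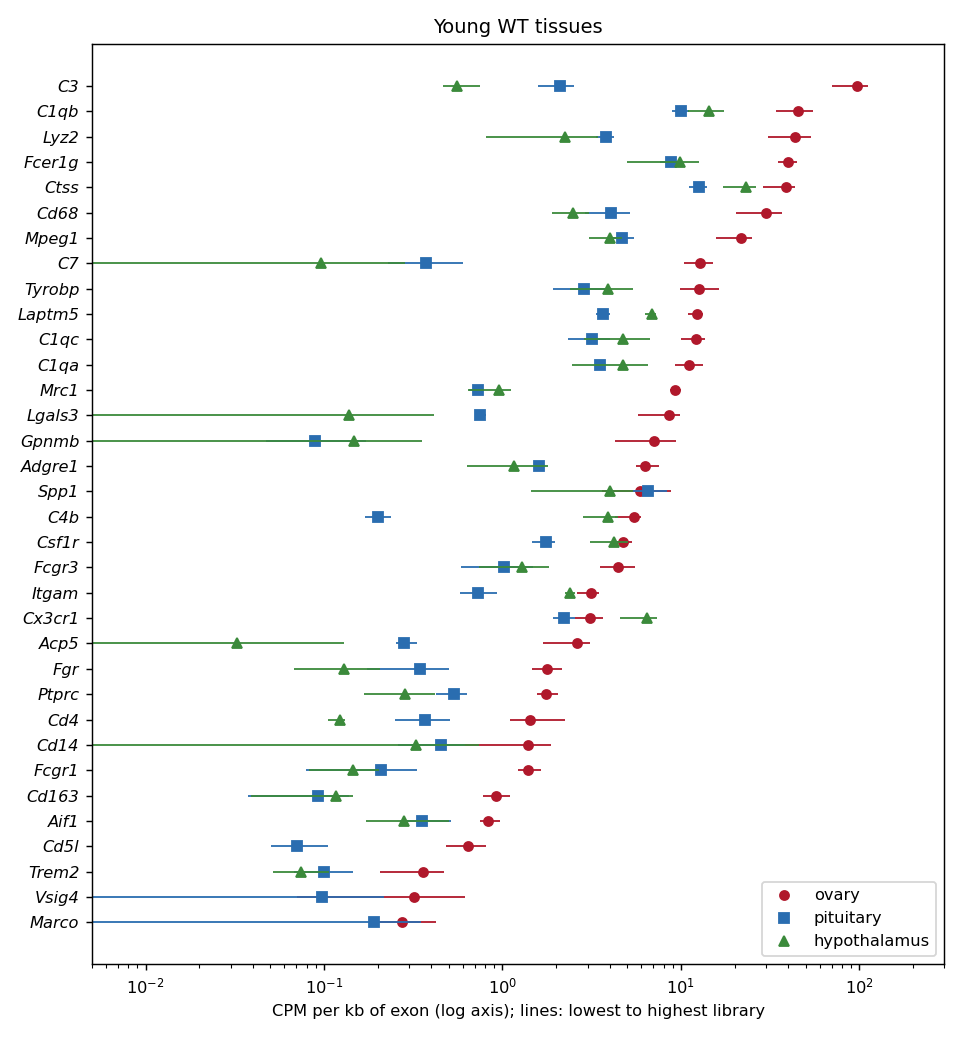
Mean CPM per kb of exon of each member in young WT ovary, pituitary and hypothalamus on a log axis, with lines from the lowest to the highest library. Members at 0 in hypothalamus have no mark there, and a line to the left edge means that the lowest library was at 0. Ovary lies to the right for most members, C3 foremost, and Cx3cr1 lies furthest right in hypothalamus.

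Among ovary libraries of the same genotype, members also varied together. With the genotype means removed from log2(CPM + 1), each member was set against the mean of the 3 C1q genes over the 12 libraries of a cohort, which share depth and dissection. These are the libraries in which the members were picked, so the relations describe them and support nothing further. In young ovary Csf1r followed C1q most closely (Pearson r = 0.954, Spearman rho = 0.951, permutation adjusted p = 0.0212 and 0.0646 over 57 relations), and r was 0.88 without the 2 libraries farthest from the median, 200H replicates 1 and 2. In older ovary it was Aif1 (r = 0.928, rho = 0.895, permutation adjusted p = 0.0212 and 0.0646), with r = 0.874 without WT replicate 4 and 200M replicate 1. C3 went with C1q in young ovary (r = 0.821, rho = 0.678, adjusted p = 0.043 and 0.111 by permutation) but r was 0.378 without those 2 libraries, so that the relation rests on them, and in older ovary its r was −0.468 (rho = −0.448, permutation adjusted p = 0.262 and 0.318). By Pearson's r, 9 of 28 members in young ovary and 17 of 29 in older ovary had a permutation adjusted p under 0.05, and 0 by Spearman's rho. The relation was not computed for all genes, so these counts do not set the members apart from other genes. The older count was 0 without 200M replicate 1 and 5 without 200M replicate 2, and the young count was 4 without WT replicate 2 or any 1 of the 200H libraries, so the counts rest on those libraries.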

How the data were processed

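RNA-seq gene counts of ovary, pituitary and hypothalamus were used as deposited. Per the labels and the study's methods, the authors aligned reads with STAR 2.7.1a to mm10 (GRCm38) and deposited raw counts per gene, made with featureCounts in stranded mode for young libraries and unstranded mode for older ovary, and with HTSeq 0.9.1 in unstranded mode for older pituitary and hypothalamus. The tables also hold the authors' fold changes, p-values and normalised values, which were not used, and 141 further columns of per-sample values were left out. Gene IDs were named through the ID and symbol pairs of the deposited tables, which named 99.54% of 55964 IDs. Of 69 libraries, 66 occur in 2 tables with 0 genes differing. No pair of replicates agreed within counting noise (lowest chi-square per degree of freedom 1.87 over 99 pairs).

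Each pair of genotypes was fitted within a tissue and cohort with edgeR 4.0.16 (limma 3.58.1, R 4.3.3): filterByExpr, TMM scaling and the quasi-likelihood test, two-sided, with Benjamini-Hochberg adjustment over all genes and a threshold of 0.05. CPM were computed after TMM scaling, which used every library of the tissue in that cohort. Coordinates and exonic lengths came from GENCODE M21 on GRCm38. The fit was checked on simulated counts. Alternatives were RLE scaling, no low-count filter, DESeq2 1.42.0, a replicate block and leaving out each library. Leaving out older ovary 200M replicates 1 and 4 together was added after the data had been seen. Replicates of a tissue are different mice. Same-numbered libraries were not paired, since in no comparison did every pair of them correlate above 0.1. In young pituitary WT, 1 column whose number matches no sample is called replicate u.

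The members and gene lists were chosen with earlier results of these data known. Per-library ovary values were given for the C1q genes, C3, C4b, C7, Adgre1, Csf1r, Cd68, Cd163, Mrc1, Trem2, Gpnmb, Acp5, Spp1, Cd5l, Lyz2 and Cx3cr1. Elsewhere members past the threshold were named (at most 10 per comparison, by p), and from other lists at most 4 genes, by p or, in ovary, by size of fold change.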

Additional observations from a re-analysis of the deposited data

Results flagged for a closer look

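Single libraries stood apart from the other 3 of their group in 8 of 140 groups examined, where about 1 in 20 is set apart by chance. In young ovary these were 200M replicate 1 for C1qa (7.42 CPM, low), 200M replicate 2 for Adgre1 (17.5 CPM, high) and 200H replicate 4 for Cx3cr1 (16.5 CPM, high). In older ovary they were 200M replicate 4 for C1qa (72.6 CPM, low), 200H replicate 1 for Trem2 (10.4 CPM, high) and WT replicate 1 for Cd5l (2.29 CPM, low). In young pituitary 200M replicate 1 was low for Csf1r (12.7 CPM) and 200M replicate 3 was high for Laptm5 (19.6 CPM).

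In 3 cases every 200M library lay on one side of WT in one setting and on the opposite side in another. The difference between the settings was not tested. Cd5l was lower in each young 200M ovary than in each young WT ovary and higher in each older one, and its log2 ratio of mean CPM was larger by 3.74 in the older cohort. In young ovary, however, Cd5l was scarce and did not pass the low-count filter, and its nearest WT and 200M libraries were almost equal. A value of 3 counts corresponds there to 0.233 to 0.473 CPM. Mrc1 was lower in young 200M ovary and higher in young 200M pituitary, a difference of 1.3 on the same scale. Lgals3 was higher in older 200M ovary and lower in older 200M pituitary, a difference of −2.46, pituitary minus ovary.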

How the results depend on the processing

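Counts are members past an adjusted p of 0.05. They are given without the shares of all genes under the same alternatives. No value of a member reversed in sign while called, and RLE scaling left each count of called members within 1.5 times its value. In ovary, leaving out 1 library gave 1 to 6 (3 with all) for young 200M against WT, 4 to 14 (11) for older 200M against WT and 3 to 9 (6) for older 200M against 200H. Without 200M replicates 1 and 4 these older counts were 4 and 0, with medians of 0.796 and 0.676. In pituitary, leaving out 1 library gave 3 to 6 (5) and 1 to 2 (2) for young 200M and 200H against WT and 2 to 10 (5), 2 to 5 (2) and 0 to 1 (0) for older 200M against WT, 200H against WT and 200M against 200H, and it gave 0 to 1 (0) for older hypothalamus 200M against WT. DESeq2 gave 5, 21 and 19 in ovary (young 200M against WT, older 200M against WT and older 200M against 200H), 7, 3 and 1 in the older pituitary comparisons in that order and 3 in older hypothalamus 200M against WT. With no low-count filter the counts were 8 and 3 in young ovary 200M against WT and against 200H, 4 and 1 in young pituitary 200H against WT and 200M against 200H, 11, 4 and 2 in older pituitary, and 8 and 7 in older hypothalamus 200M against WT and against 200H. Where a count moved without a library, fewer samples were fitted; the cause was otherwise not tested. Young hypothalamus, the tissue with the fewest counts, let 19 members be tested.

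With the replicate number as a block the counts were 3 for older ovary 200M against WT, 0 and 0 for young pituitary 200M and 200H against WT (the median of the latter was 0.146) and 11 for older pituitary 200M against WT. Same-numbered libraries share only a number.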
